A study of Mus musculus with 2 samples.

Results

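The genes described here are 10 ligands, receptors and partners known for keeping microglia alive and in their resting state: *Csf1*, *Il34* and their receptor *Csf1r*, *Cx3cl1* and its receptor *Cx3cr1*, and *Tgfb1*, *Tgfb2*, *Tgfbr1*, *Tgfbr2* and *Lrrc33*. They were chosen by gene symbol from the 32285 genes of the count matrices. Of the 10 symbols, 9 were found as written, and *Lrrc33* was found under its current symbol *Nrros*, which RefSeq pairs with it and which is used below. The question was which class of striatal cell held each ligand and each receptor.

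Microglia are the resident macrophages of the brain. They depend on signalling through the CSF1 receptor, a tyrosine kinase with a pair of ligands, CSF1 and IL-34. Fractalkine, encoded by *Cx3cl1*, is a membrane-bound chemokine that its receptor CX3CR1 reads on microglia, and TGF-beta is secreted in a latent form, tethered on microglia by NRROS, and read by a complex of TGFBR2, which binds the ligand, and TGFBR1, which is phosphorylated by it.

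The data are 2 10x Genomics single-cell libraries of dissociated striatum, replicates 1 and 2 of 1 condition. Both came from untreated wild-type mice of 8 to 10 weeks. The strain label reads C57/Bl6J while the protocol text names C57BL/6NTac. According to the study's methods, the tissue was digested with pronase in the presence of actinomycin D, which blocks new transcription, and the labels call the cells glia enriched. The study's methods describe male mice, give a younger age range than the labels and name more mice than there are libraries. How the mice were divided over the libraries is not given in the sources used here, and each library may pool animals. The p-values measure how far differences between classes varied over these 2 libraries, after the shift common to a library was taken out. That spread was estimated over all classes in 1 fit and shared among genes, so a class unequal between the libraries can still be called. The dissociation and the filter set how many cells of each type were recovered.

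Library 1 held 6978 barcodes with 44597660 unique molecular identifiers (UMIs, each 1 captured transcript molecule), and library 2 held 5437 barcodes with 37982720 UMIs. The libraries shared 9 barcode sequences. After cells with fewer than 300 detected genes and marked doublets had been removed, 6802 and 5205 cells remained. The cells fell into 9 classes that each held 20 or more cells per library, named "-like" from marker genes, with the 10 genes left out of the clustering: 2140 microglia-like, 170 macrophage-like, 1466 endothelial-like, 491 mural-like, 2563 astrocyte-like, 2405 oligodendrocyte-like, 643 oligodendrocyte precursor (OPC)-like, 1665 neuroblast-like and 367 neuron-like cells. A further 97 erythroid-like cells, of which 11 were in library 2, were not tested. The neuroblast-like class was mixed, with the cell-cycle genes *Top2a* and *Mki67* among its 10 leading genes. In finer clusterings 551 of its cells took the name progenitor, and 109 took the name ependymal. Neuroblast-like values describe this mixture. The microglia-like class held all 8 markers of its list, among them *P2ry12*, *Tmem119* and *Sall1*. Levels are CPM, the UMIs of a gene scaled to a common total over each class and library, and library 1 is named first wherever a pair of values is given. Intervals and floors cover counting error only. Because the kit reads transcript ends, levels are compared between classes and not between genes.

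Across the 9 classes the receptors lay mostly in myeloid cells, while the ligands led in several classes. *Csf1r*, *Cx3cr1* and *Tgfbr1* were highest in microglia-like cells, *Tgfbr2* was shared by endothelial-like and myeloid cells, *Csf1* led in oligodendrocyte-like cells, *Il34* in mural-like cells, *Cx3cl1* in neuron-like cells, *Tgfb1* in microglia-like cells and *Tgfb2* in vascular cells. Of the 90 pairs of a gene and a class, 32 were higher than the mean of the other classes at an adjusted p under 0.05 (edgeR quasi-likelihood test on sums per library and class, with Benjamini-Hochberg adjustment over 15475 genes). The share of all genes called higher was 28.9% in microglia-like, 17.1% in macrophage-like, 25.8% in endothelial-like, 19.9% in mural-like, 29% in astrocyte-like, 30.3% in oligodendrocyte-like, 25.9% in OPC-like, 32.3% in neuroblast-like and 30.4% in neuron-like cells. Against this background, 6 of the 10 genes were called in microglia-like cells, 6 in macrophage-like, 7 in endothelial-like, 4 each in mural-like and astrocyte-like, 2 each in OPC-like and neuron-like, 1 in oligodendrocyte-like and 0 in neuroblast-like cells, where 9 of the 10 were lower beside 24.9% of all genes. The median log2 fold change of the 10 genes was 4.06 in microglia-like cells and 2.61 in macrophage-like cells, beside −0.17 and −0.32 over all genes tested. It was −2.30 in oligodendrocyte-like cells, although 1 of the 10, *Csf1*, was highest there.

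**Figure D1:**
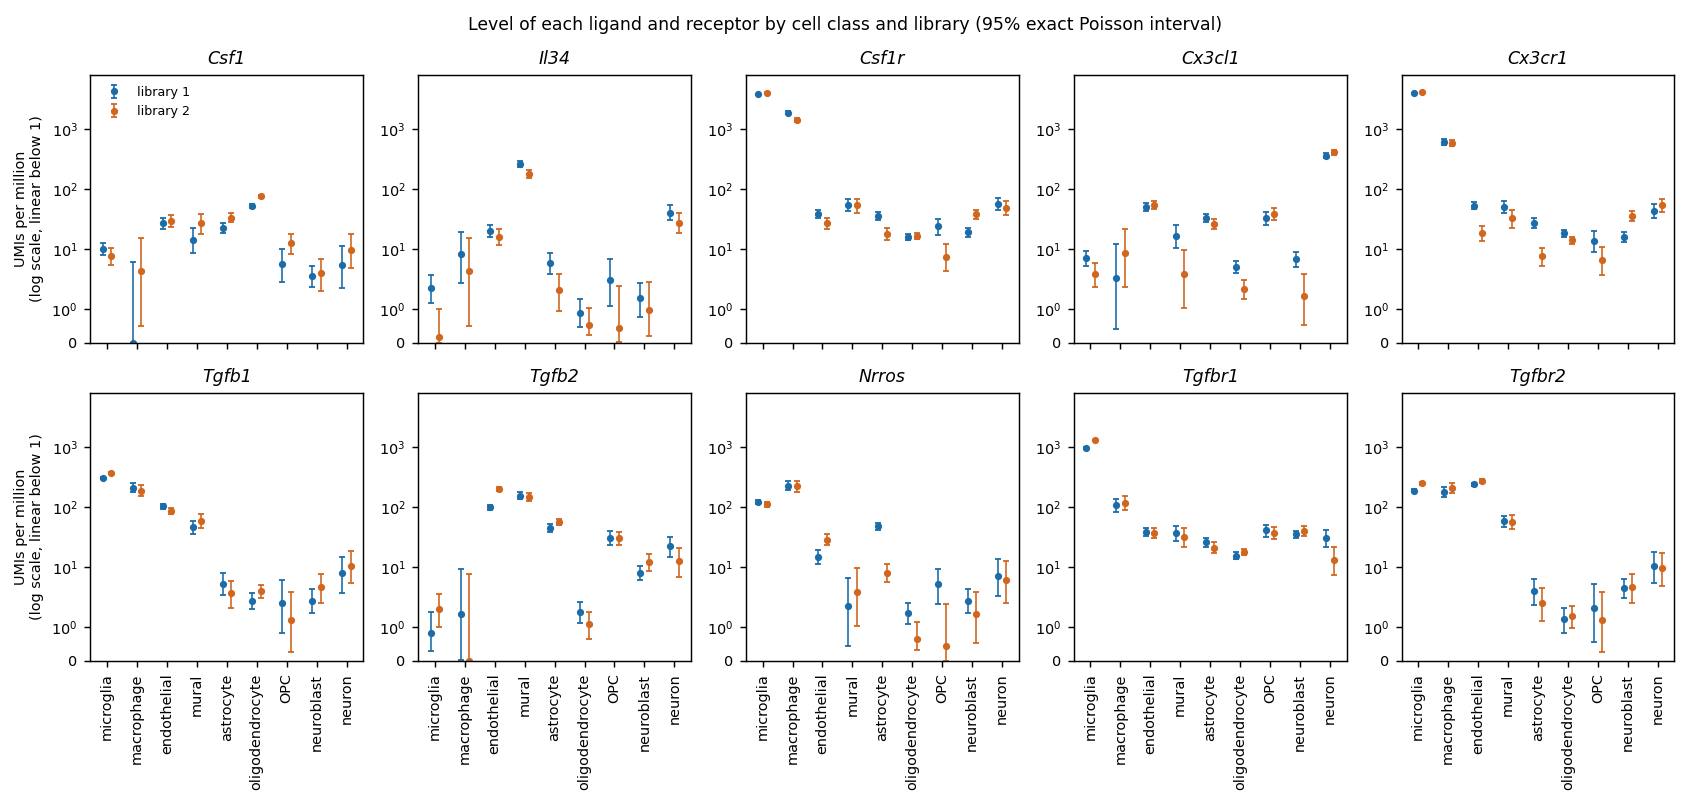
CPM of each of the 10 genes (y axis, log scale above 1 and linear below) in 9 cell classes (x axis) in library 1 (blue) and library 2 (orange), with 95% exact Poisson intervals. *Csf1r*, *Cx3cr1* and *Tgfbr1* peak in microglia-like cells, *Il34* in mural-like, *Cx3cl1* in neuron-like and *Csf1* in oligodendrocyte-like cells in both libraries.

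*Csf1r* (ENSMUSG00000024621, GRCm38 chr18:61100598-61132149, + strand) encodes the tyrosine kinase receptor for CSF1 and IL-34. Microglia-like cells held 3781 and 3988 CPM, from 26848 and 21792 UMIs, and macrophage-like cells 1842 and 1408. Both libraries placed microglia-like cells above macrophage-like cells, by a log2 fold change of 1.40 ± 0.30 (edgeR quasi-likelihood test, Benjamini-Hochberg adjusted p = 0.00303). Values after ± are approximate standard errors (SE), the absolute log2 fold change divided by the square root of the test's F statistic. Against the mean of the other 8 classes the microglial log2 fold change was 6.61 ± 0.17 (edgeR, adjusted p = 1.35e-15) and the macrophage one 5.03 ± 0.18 (edgeR, adjusted p = 4.22e-13). In the 7 classes that are not myeloid *Csf1r* ranged from 7.56 to 56.5 CPM. That was 0.19% to 1.49% of the microglial level, and the summed level of the 8 microglial markers in the same classes was 0.481% to 1.60% of theirs. In 12 of the 14 class and library values *Csf1r* was at or below those markers, and in none did its interval lie above them. The exceptions were mural-like cells, at 1.44% and 1.34% beside 1.42% and 1.11% for the markers. Microglia-like cells carried 93.1% and 94.3% of all *Csf1r* UMIs. When cells were thinned to 1000 UMIs, 96.4% and 96.6% of microglia-like cells had a *Csf1r* UMI, as against 1.72% to 2.32% of oligodendrocyte-like cells. Here and below, cells with fewer UMIs than the target were left out of thinned values. At 1000 UMIs these were 99 and 56 of the microglia-like cells.

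*Cx3cr1* (ENSMUSG00000052336, GRCm38 chr9:119901616-120069879, − strand) encodes the fractalkine receptor, a G protein-coupled receptor widely used to mark microglia. Its level was 3891 and 4105 CPM in microglia-like cells and 604 and 582 in macrophage-like cells. The level of library 1 was 0.948 and 1.04 times that of library 2 in these classes, and no other class came near either. Microglia-like cells exceeded macrophage-like cells by a log2 fold change of 2.90 ± 0.40 (edgeR, adjusted p = 6.16e-05) and the mean of the other classes by 7.06 ± 0.21 (edgeR, adjusted p = 1.23e-14). The 7 classes that are not myeloid held 6.67 to 53.6 CPM, at or below the microglial markers in 13 of 14 values. The exception was endothelial-like cells of library 1, at 1.36% of the microglial level beside 1.177% for the markers. There the interval, from 1.184%, lay above the markers. The libraries were less alike in these classes. Among those with at least 100 *Cx3cr1* UMIs the ratio of library 1 to library 2 ranged from 0.454 in neuroblast-like to 3.62 in astrocyte-like cells. The GRCm38 annotation of *Cx3cr1* spans several other genes on both strands, and how reads in the overlaps were counted was not tested.

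**Figure D2:**
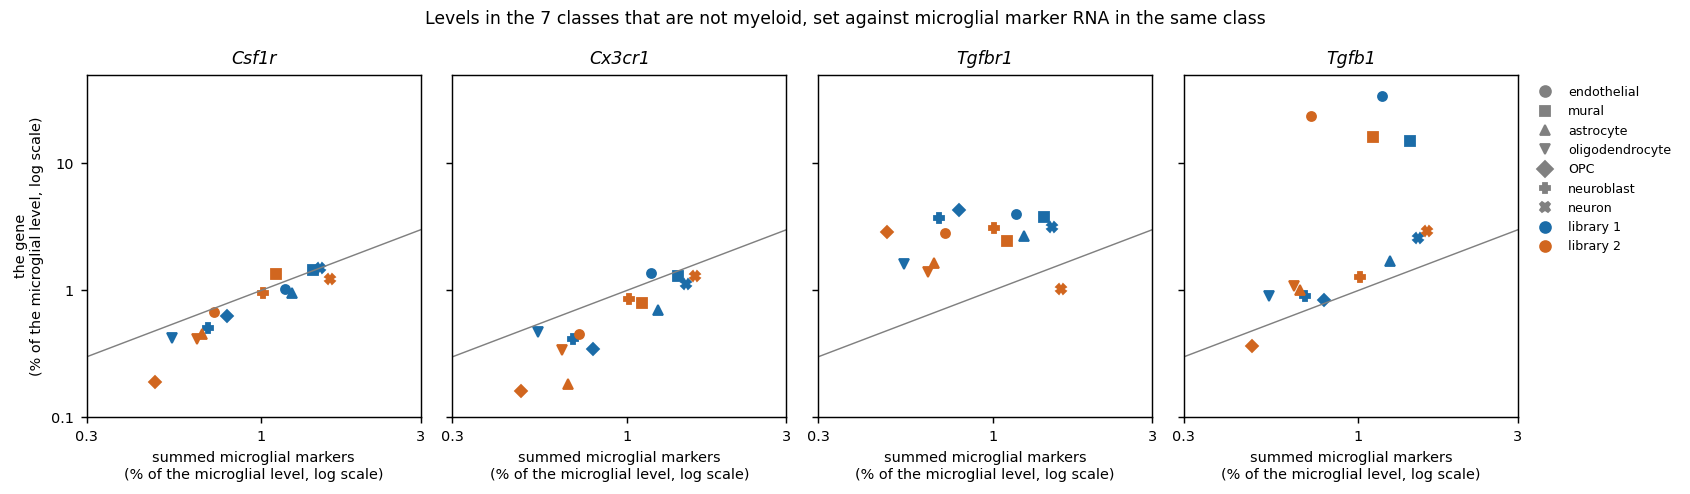
Level of *Csf1r*, *Cx3cr1*, *Tgfbr1* and *Tgfb1* (y axis, percent of the microglia-like level, log scale) against the summed level of 8 microglial markers (x axis, percent of the microglia-like level, log scale) in 7 classes that are not myeloid, with 1 symbol per class and 1 colour per library. Points on the grey line have the gene and the markers at the same share. *Csf1r* and *Cx3cr1* follow the line or lie under it, while 13 of 14 values of *Tgfbr1*, and endothelial-like and mural-like *Tgfb1*, lie above 2 times the markers.

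The ligands of CSF1R had separate sources. *Csf1* (ENSMUSG00000014599, GRCm38 chr3:107741048-107760469, − strand), which encodes the colony-stimulating factor after which the receptor is named, measured 52.1 and 76.2 CPM in oligodendrocyte-like cells. It measured 26.9 and 29.6 in endothelial-like, 22.8 and 33.4 in astrocyte-like and 14.2 and 26.8 in mural-like cells. In each library oligodendrocyte-like cells stood above all other classes, with 69.1% and 76.3% of the *Csf1* UMIs. The excess over endothelial-like cells, next in order, was a log2 fold change of 1.46 ± 0.22 (edgeR, adjusted p = 2.20e-05), and over the mean of the others 2.95 ± 0.16 (edgeR, adjusted p = 3.64e-11). Endothelial-like and astrocyte-like cells were also called higher than the mean, by 1.31 ± 0.21 and 1.35 ± 0.20 (edgeR, adjusted p = 4.77e-05 and 2.16e-05), and did not differ from each other beyond their spread (−0.03 ± 0.24, edgeR adjusted p = 0.920). Microglia-like cells held 10.1 and 7.69 CPM, and macrophage-like cells held 0 and 2 UMIs, below the floor of 3 counts in each library.

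Within the oligodendrocyte-like class *Csf1* was found in every finer group. Among 35 such groups over all cells (resolution 2, chosen after the data were seen) it read 52.3 and 76.2 CPM in the group led by *Il33* and *Ptgds*, 54.3 and 95.2 in the shallow group led by *Hapln2*, and 78.98 and 123 in the group led by *Klk6*. The lowest was 15.1 and 26.2, in a group of 88 cells led by *9630013A20Rik*. At 1000 UMIs per cell 5.83% and 8.23% of oligodendrocyte-like cells had a *Csf1* UMI.

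*Il34* (ENSMUSG00000031750, GRCm38 chr8:110741829-110805924, − strand), which encodes the other CSF1R ligand and is known as a product of neurons in the forebrain, was highest in mural-like cells, the cells that wrap vessels. The mural-like level was 262 and 178 CPM, the neuron-like level 40.6 and 27.7 and the endothelial-like level 20.0 and 16.1. Mural-like cells lay far above the others in both libraries, at 62.7% and 64.4% of the *Il34* UMIs. They exceeded neuron-like cells by a log2 fold change of 2.80 ± 0.27 (edgeR, adjusted p = 1.81e-07) and the mean of the other classes by 5.61 ± 0.17 (edgeR, adjusted p = 3.45e-14). Neuron-like cells exceeded the mean by 2.46 ± 0.26 (edgeR, adjusted p = 3.35e-07). Their *Il34* was 15.5% and 15.6% of the mural-like level, while the 8 mural markers summed to 0.611% and 0.109% there.

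The *Il34* of the other classes was small. The endothelial-like value was called higher than the mean (1.59 ± 0.22, edgeR adjusted p = 8.74e-06). However, 82.1% and 93.8% of its UMIs came from 63 cells led by the pericyte markers *Rgs5*, *Vtn* and *Kcnj8*. These deep cells, with a median of 15016 UMIs, had all venous as well as all pericyte markers raised. At resolution 0.32, where these cells form a group of their own, the log2 fold change was −1.23 (edgeR, adjusted p = 0.0376). That fit left out groups without a name and gained fibroblast-like and progenitor-like classes, so its mean of the other classes is a different one. The endothelial-like share of the mural-like level, 7.64% and 9.06%, was also close to that of the mural markers, 5.93% and 8.72%. Microglia-like cells held 16 and 1 *Il34* UMIs, and oligodendrocyte-like cells 13 and 8. On the opposite strand the annotation places *Gm15894* and *Gm15895* over *Il34*.

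Within the mural-like class *Il34* was a pericyte and fibroblast transcript more than a smooth muscle one. A pair of groups with all pericyte markers raised held 545 and 396 CPM (149 cells) and 246 and 291 (170 cells). The group led by *Acta2* and *Tagln*, the contractile genes of smooth muscle, held 81.6 and 50.02 (116 cells), and 56 fibroblast-like cells led by *Dcn* held 363 and 204. The smooth muscle intervals, 61.1 to 107 and 33.2 to 72.3, did not reach those of the other mural-like groups in either library. Outside the vessels, a group of 137 shallow cells led by the interneuron gene *Sst*, which lay within the astrocyte-like class, held 108 and 34.9 CPM of *Il34*, from 9 and 3 UMIs.

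**Figure D3:**
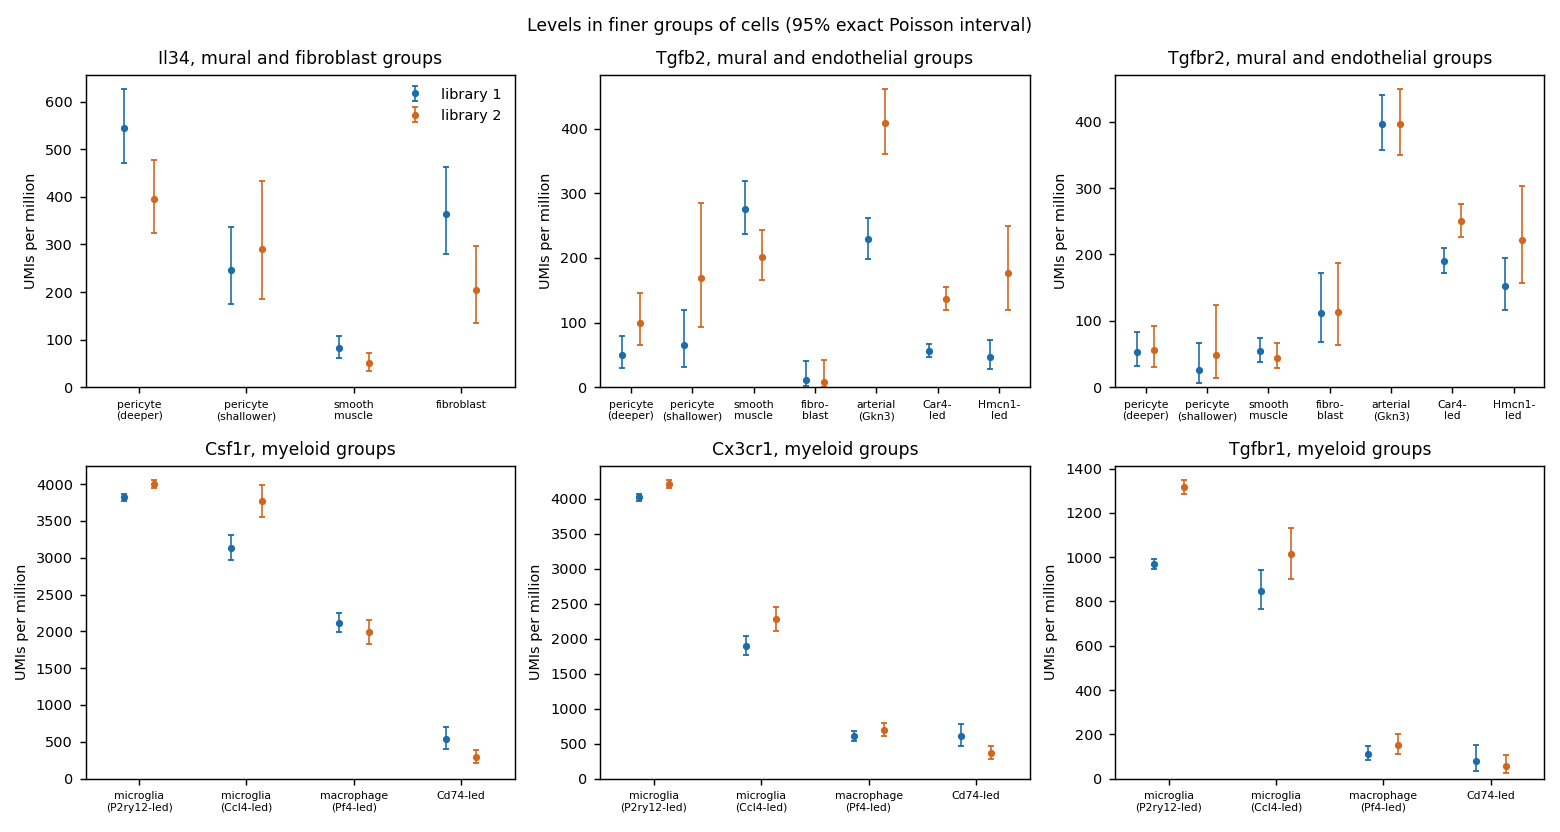
CPM (y axis, linear from 0) in finer groups of cells (x axis) for *Il34* in mural-like groups and *Tgfb2* and *Tgfbr2* in mural-like and endothelial-like groups (top) and *Csf1r*, *Cx3cr1* and *Tgfbr1* in myeloid groups (bottom), library 1 in blue and library 2 in orange, with 95% exact Poisson intervals. Of the mural-like groups the smooth muscle one has the lowest *Il34*, *Tgfbr2* is highest in the arterial group, and *Cx3cr1* is lower in the microglia group led by *Ccl4* than in the one led by *P2ry12*.

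*Cx3cl1* (ENSMUSG00000031778, GRCm38 chr8:94772009-94782427, + strand) encodes fractalkine. Its level in neuron-like cells was 357 and 409 CPM, in endothelial-like cells 50.2 and 54.7, in OPC-like cells 32.7 and 38.7 and in astrocyte-like cells 32.99 and 26.01. Neuron-like cells made up 367 of the 12007 cells and carried 42.3% and 51.6% of the *Cx3cl1* UMIs. They exceeded endothelial-like cells by a log2 fold change of 2.74 ± 0.30 (edgeR, adjusted p = 5.55e-07) and the mean of the other classes by 4.82 ± 0.20 (edgeR, adjusted p = 1.91e-12). Endothelial-like cells, the other holder, exceeded the mean by 1.74 ± 0.24 (edgeR, adjusted p = 1.00e-05) and held *Cx3cl1* at 14.1% and 13.4% of the neuron-like level, where the neuronal markers summed to 1.67% and 0.548%. Microglia-like cells, which hold the receptor, had 7.04 and 3.84 CPM of the ligand.

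The astrocyte-like call for *Cx3cl1* (0.88 ± 0.25, edgeR adjusted p = 0.00687) rested largely on cells with neuronal leading genes. Of the UMIs, 56.4% and 47.8% came from 137 shallow cells of that class led by *Sst*, *Cartpt* and *Npy*, transcripts of interneurons, in which *Cx3cl1* reached 1011 and 628 CPM. The deep astrocyte group led by *Crym* and *Fjx1* held 7.14 and 9.45. Another group of 271 shallow cells, 250 of them astrocyte-like, was led by *Camk2a* and *Slc17a7* and took no class name. It held 24 and 11 *Cx3cl1* UMIs, beside 149 and 113 in the astrocyte-like class. At resolution 0.32 the astrocyte-like class lost 276 cells to the neuron-like class, which then held 385 and 260 cells. The astrocyte-like log2 fold change was then −0.41 (edgeR, adjusted p = 0.401), against a set of other classes that had changed as well. The OPC-like call (0.73 ± 0.27, edgeR adjusted p = 0.0366) was lost under 5 of 9 alternatives. OPC-like cells carried summed neuronal marker RNA at 7.07% and 5.64% of the neuron-like level beside 9.16% and 9.45% for *Cx3cl1*. Taken singly, the 7 neuronal markers had a median of 2.60% and 2.28% and a highest value of 18.7% and 11.5%. The part of neuronal RNA in the OPC-like value was not tested.

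The upstream sequences of this ligand and its receptor are shown because the ligand led in neuron-like and the receptor in microglia-like cells. Each is the 250 bases before the RefSeq start in GRCm38.p6, on the gene's strand, at chr8:94771930-94772179 (+) and chr9:120068297-120068546 (−). These RefSeq starts lie inside the gene spans given above, which come from another annotation. The *Cx3cl1* window therefore falls partly inside its span and the *Cx3cr1* window wholly inside. Which start was used in these cells was not tested. Capitals mark TATAAA and GAGGAA, the core letters of a TATA box and of a PU.1 (*Spi1*) site, searched on both strands.
Cx3cl1: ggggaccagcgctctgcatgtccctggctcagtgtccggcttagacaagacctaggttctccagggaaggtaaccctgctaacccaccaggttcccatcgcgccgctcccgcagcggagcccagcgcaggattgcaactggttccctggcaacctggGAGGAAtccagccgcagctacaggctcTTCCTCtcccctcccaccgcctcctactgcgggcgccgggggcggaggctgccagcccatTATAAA
Cx3cr1: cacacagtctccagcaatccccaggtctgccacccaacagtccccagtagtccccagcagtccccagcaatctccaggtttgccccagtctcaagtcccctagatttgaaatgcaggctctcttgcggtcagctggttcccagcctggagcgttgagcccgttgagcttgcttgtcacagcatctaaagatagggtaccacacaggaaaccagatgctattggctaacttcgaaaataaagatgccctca
*Cx3cl1* held 1 TATAAA and 2 GAGGAA matches and *Cx3cr1* held 0 of either. Among 32851 promoters in the table, 12.4% held TATAAA and 23.25% held GAGGAA in the same window, so the matches describe these letters alone. The windows held 14 and 4 CG dinucleotides, beside a median of 6.

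Of the TGF-beta ligands, *Tgfb1* (ENSMUSG00000002603, GRCm38 chr7:25687002-25705077, + strand) was a myeloid and vascular transcript. Its level fell in steps, from 310 and 366 CPM in microglia-like cells through 212 and 188 in macrophage-like and 104 and 86.0 in endothelial-like to 46.2 and 59.3 in mural-like cells. Each of these steps was larger than the spread, with log2 fold changes of 0.87 ± 0.19, 1.21 ± 0.20 and 0.87 ± 0.21 (edgeR, adjusted p = 0.00419, 0.000148 and 0.00461). Mural-like cells in turn exceeded neuron-like cells, next in order, by 2.55 ± 0.32 (edgeR, adjusted p = 3.98e-06). Endothelial-like *Tgfb1* was 33.7% and 23.5% of the microglial level where the microglial markers summed to 1.18% and 0.721%. Against the mean of all others the log2 fold change in microglia-like cells was 4.82 ± 0.12 (edgeR, adjusted p = 7.31e-16), and these cells carried 75.9% and 79.6% of the *Tgfb1* UMIs.

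*Tgfb2* (ENSMUSG00000039239, GRCm38 chr1:186622792-186705989, − strand), which encodes another isoform of the ligand, was all but missing from myeloid cells. Mural-like cells held 156 and 148 CPM, endothelial-like cells 98.9 and 200 and astrocyte-like cells 45.4 and 57.1. Mural-like and endothelial-like cells did not differ beyond their spread (log2 fold change 0.07 ± 0.25, edgeR adjusted p = 0.881), and endothelial-like cells exceeded astrocyte-like cells by 1.43 ± 0.25 (edgeR, adjusted p = 0.000110). Over the mean of the others the values were 3.78 ± 0.21 in mural-like, 3.70 ± 0.19 in endothelial-like and 2.08 ± 0.22 in astrocyte-like cells (edgeR, adjusted p = 1.62e-10, 2.19e-11 and 3.65e-07). Microglia-like cells held 6 and 11 *Tgfb2* UMIs and macrophage-like cells 1 and 0.

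The endothelial-like level of *Tgfb2* differed between the libraries. Library 1 held 0.494 times the level of library 2, and 226 of 7866 genes with at least 100 UMIs in this class were at least as unequal. Within the class *Tgfb2* was highest in the arterial group led by *Gkn3* and *Sox17*, at 229 and 408 CPM, beside 56.3 and 136 in the group led by *Ctla2a* and *Car4*. In each library the arterial value was the higher by more than its interval. Among mural-like cells it was highest in smooth muscle, 275 and 202, beside 50.3 and 99.85 in the deeper pericyte group and 64.7 and 170 in the shallower one. In library 2 the *Tgfb2* interval of the shallower pericyte group, 92.7 to 285, overlapped that of smooth muscle, 166 to 243. The fibroblast-like cells held 2 and 1 *Tgfb2* UMIs.
Upstream of *Tgfb2*, the 250 bases at chr1:186705990-186706239 (GRCm38.p6, − strand) are shown beside those of *Tgfbr1* at chr4:47352972-47353221 (+), as the vascular ligand and the microglial receptor of one pathway, with the same letters in capitals.
Tgfb2: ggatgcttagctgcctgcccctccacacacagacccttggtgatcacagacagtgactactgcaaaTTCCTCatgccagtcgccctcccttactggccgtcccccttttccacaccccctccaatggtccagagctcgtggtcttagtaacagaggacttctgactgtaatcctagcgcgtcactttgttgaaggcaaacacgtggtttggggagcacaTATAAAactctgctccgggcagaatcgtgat
Tgfbr1: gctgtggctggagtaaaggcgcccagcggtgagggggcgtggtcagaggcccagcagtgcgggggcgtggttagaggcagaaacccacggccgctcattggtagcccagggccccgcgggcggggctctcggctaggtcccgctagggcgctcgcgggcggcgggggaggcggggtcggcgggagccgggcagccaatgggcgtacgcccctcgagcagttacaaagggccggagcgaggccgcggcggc
*Tgfb2* held 1 match to each motif and this *Tgfbr1* window held 0, with 8 and 29 CG dinucleotides. The table lists another *Tgfbr1* start, whose window at chr4:47385966-47386215 (+) held 0 TATAAA and 1 GAGGAA match and 3 CG dinucleotides. Which start these cells used was not tested.

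*Tgfbr1* (ENSMUSG00000007613, GRCm38 chr4:47353222-47414931, + strand) encodes the type I receptor kinase. Microglia-like cells held 961 and 1298 CPM and macrophage-like cells 107 and 119. Microglia-like cells exceeded macrophage-like cells by a log2 fold change of 3.45 ± 0.23 (edgeR, adjusted p = 1.43e-08) and the mean of the other classes by 5.30 ± 0.11 (edgeR, adjusted p = 1.77e-16). Macrophage-like cells were themselves called, at 1.42 ± 0.20 (edgeR, adjusted p = 1.90e-05). Unlike *Csf1r* and *Cx3cr1*, *Tgfbr1* was above the summed level of microglial marker RNA in the classes that are not myeloid. It lay between 13.4 and 41.0 CPM, and in 13 of 14 values it was over 2 times the share of the summed markers. The exception was neuron-like cells of library 2, with 15 UMIs. Taken singly, the highest marker stood below *Tgfbr1* in endothelial-like cells alone, at 2.33% and 1.04% of the microglial level beside 4.03% and 2.85%. In astrocyte-like cells, for example, the highest marker was at 9.79% and 9.89% beside 2.70% and 1.63% for *Tgfbr1*. From the OPC-like class, next after macrophage-like cells at 41.0 and 37.4, down to the last, no class differed from its neighbour in order beyond the spread.

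*Tgfbr2* (ENSMUSG00000032440, GRCm38 chr9:116084293-116175360, − strand) encodes the type II receptor, which binds the ligand first. Levels were 238 and 274 CPM in endothelial-like, 187 and 250 in microglia-like, 177 and 209 in macrophage-like and 58.2 and 56.5 in mural-like cells. Microglia-like values overlapped those of both other leading classes, and neither neighbouring pair differed beyond the spread (−0.04 ± 0.14 and 0.31 ± 0.16 on the log2 scale, edgeR adjusted p = 0.859 and 0.229). Macrophage-like cells exceeded mural-like cells by 1.88 ± 0.18 (edgeR, adjusted p = 4.71e-07). In astrocyte-like, OPC-like, oligodendrocyte-like and neuroblast-like cells *Tgfbr2* did not exceed 4.63 CPM. Both receptors of the pair were thus called together in microglia-like and macrophage-like cells. In endothelial-like and mural-like cells *Tgfbr2* was called and *Tgfbr1* was lower than the mean of the other classes, which includes the microglia-like level. *Tgfbr1* was still measured there, at 38.7 and 36.9 CPM in endothelial-like and 36.5 and 31.6 in mural-like cells. Within the endothelial-like class the arterial group held 397 and 397 CPM of *Tgfbr2*, beside 191 and 250 in the group led by *Ctla2a* and *Car4*.

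*Nrros* (ENSMUSG00000052384, GRCm38 chr16:32142785-32165594, − strand), which encodes the protein that holds latent TGF-beta on the microglial surface, measured 227 and 222 CPM in macrophage-like and 122 and 111 in microglia-like cells. The macrophage-like value was above the microglial one in each library, but the difference, 0.80 ± 0.43 on the log2 scale, did not pass the test (edgeR, adjusted p = 0.241). Against the mean of all others the log2 fold changes were 4.88 ± 0.38 and 3.97 ± 0.29 (edgeR, adjusted p = 1.57e-08 and 2.41e-09). Microglia-like cells exceeded astrocyte-like cells, next in order, by 2.34 ± 0.43 (edgeR, adjusted p = 0.000143). Endothelial-like cells were called as well, at 0.98 ± 0.38 over the mean of the others (edgeR, adjusted p = 0.0443). Their level was 15.1 and 28.9 CPM, and 312 of 7866 genes with at least 100 UMIs in that class were at least as unequal between the libraries.

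*Nrros* in astrocyte-like cells set the libraries further apart, and in the other direction. It read 48.0 CPM from 217 UMIs in library 1 and 8.05 from 35 UMIs in library 2, a ratio of 5.96, and 14 of 8938 genes with at least 100 UMIs in that class were at least as unequal. The difference held in the deep group led by *Crym* (63.0 and 9.10) and in the group led by *Grin2c* (40.9 and 6.99). The astrocyte-like call (1.34 ± 0.36, edgeR adjusted p = 0.00474) rested on library 1, since in library 2 alone the log2 fold change was −0.06. Microglial marker RNA in the class was also higher in library 1, at 1.24% and 0.666% of the microglial level, as was *Cx3cr1*, at 27.5 and 7.59 CPM. The astrocyte-like *Nrros* level of 48.0 and 8.05 CPM stood beside 122 and 111 in microglia-like cells. The part of microglial RNA in the *Nrros* value was not tested.

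Within microglia-like cells the 6 genes called there were compared between a group of 1636 cells led by *Cx3cr1* and *P2ry12* and a group of 505 cells, 504 of them microglia-like, led by the chemokine gene *Ccl4*, with median depths of 6985 and 1245 UMIs. These groups were defined on the same cells and are described without a test. *Cx3cr1* read 4019 and 4214 CPM in the former and 1899 and 2275 in the latter, and *Nrros* 125 and 114 beside 69.6 and 58.4. *Csf1r* was closer, at 3823 and 4002 beside 3137 and 3768, and so was *Tgfbr1*, at 968 and 1315 beside 849 and 1013. *Tgfb1* read 317 and 372 beside 195 and 273, and *Tgfbr2* 193 and 254 beside 95.1 and 185. The *Ccl4*-led group was the lower in each library for each of the 6 genes. The part of depth in this was not tested. In the macrophage-like class, 41 cells held 534 and 293 CPM of *Csf1r*, beside 2114 and 1986 in the *Pf4*-led group of 129 cells. These 41 cells were led by *Cd74*, *H2-Eb1*, *H2-Aa*, *H2-Ab1*, *Igkc* and *Ccl5*, and by the class markers they took the name neutrophil. All macrophage-like levels and tests given above include them, and their part in those values was not tested.

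**Figure D4:**
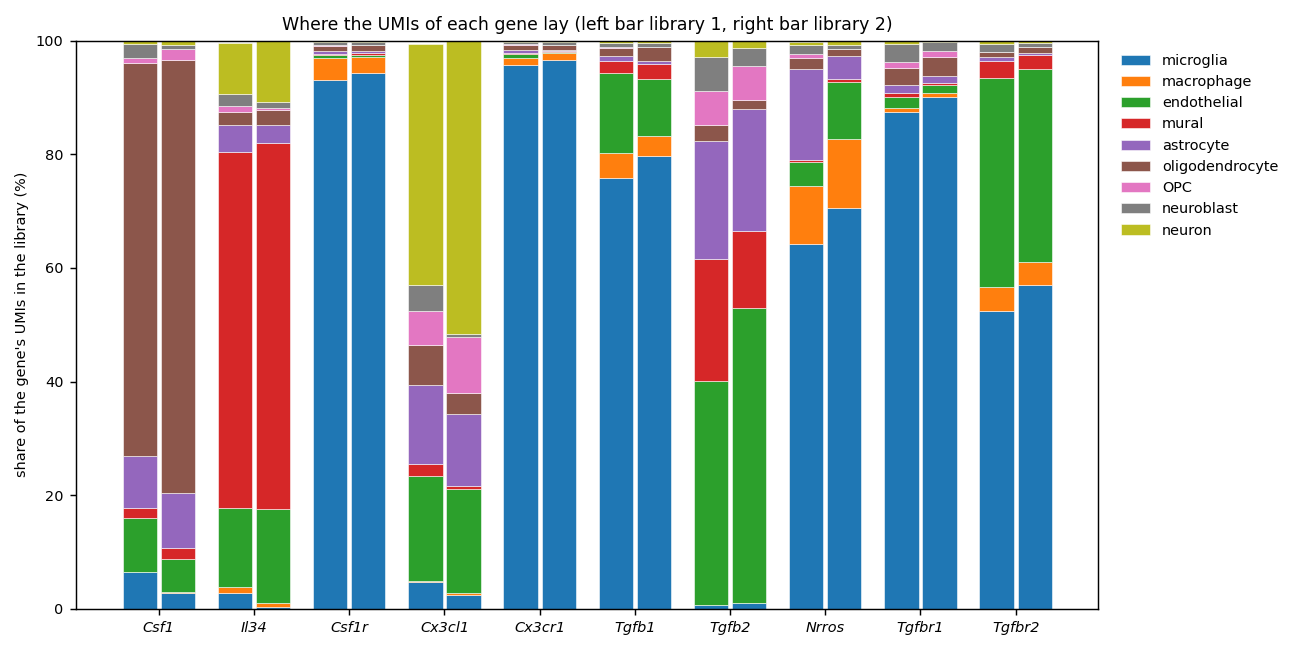
Share of each gene's UMIs (y axis, percent) found in each of 9 cell classes (colours) in library 1 (left bar) and library 2 (right bar); erythroid-like cells, under 1% in each, are not drawn. Microglia-like cells hold at least 93.1% of *Csf1r* and *Cx3cr1* UMIs, oligodendrocyte-like cells most of *Csf1*, mural-like cells most of *Il34*, and *Tgfb2* is divided among vascular and astrocyte-like cells. The shares follow the number and depth of the cells recovered as well as the level.

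Of all 360 comparisons of a pair of classes over the 10 genes, 255 passed the threshold in either direction, beside 49.2% of gene and pair combinations over all genes (edgeR with Benjamini-Hochberg adjustment within each pair). For 7 of the 10 genes the leading class differed from the next one in order. For *Tgfb2*, *Tgfbr2* and *Nrros* it could not be separated from the next.

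The other genes of the pathways were counted in the same fit. Of 38 such genes 36 were tested, 12 around CSF1R, 3 around fractalkine and 21 of TGF-beta signalling, and for each class the gene with the largest called increase is named. In 14 of the 324 tests, each of a gene with 5 or fewer UMIs per library in the class, the SE was above 20 and no call was made, so counts of lower genes may be too small. In microglia-like cells 25 of the 36 were higher and 7 lower, beside 28.9% and 25.8% of all genes, with a median log2 fold change of 1.38 beside −0.17. Of the 12 genes around CSF1R, 10 were higher, and *Spi1*, the lineage factor PU.1, came first at 450 and 468 CPM (6.22 ± 0.12, edgeR adjusted p = 1.34e-16). All 3 genes around fractalkine were higher, including *Adam10* and *Adam17*, proteases that shed it. Of the 21 TGF-beta genes, 12 were higher and 6 lower.

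In macrophage-like cells 15 of the 36 were higher and 4 lower, beside 17.1% and 15.5% of all genes. They were 10 of the 12 around CSF1R and 2 of the 3 around fractalkine, but of the 21 TGF-beta genes 3 were higher and 3 lower, with a median of −0.66 beside −0.32 over all genes. *Tyrobp*, an adaptor of myeloid receptors, came first at 2643 and 2347 CPM (5.70 ± 0.16, edgeR adjusted p = 2.15e-14), and its microglial log2 fold change was 6.13 ± 0.15 (edgeR, adjusted p = 1.35e-15).

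In endothelial-like cells 15 of the 21 TGF-beta genes were higher and 3 lower, beside 25.8% and 22.1% of all genes, and *Eng*, a co-receptor of endothelium, came first at 670 and 672 CPM (5.99 ± 0.20, edgeR adjusted p = 5.36e-14). In mural-like cells 13 of the 21 were higher and 2 lower, beside 19.9% and 14.3% of all genes. There *Lrrc32*, a relative of *Nrros* that tethers latent TGF-beta on other cells, came first at 65.6 and 106 (5.97 ± 0.22, edgeR adjusted p = 1.62e-12). *Lrrc32* had at most 12.8 CPM in any other class, and *Nrros* held 2.24 and 3.83 in mural-like cells.

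In astrocyte-like cells 5 of the 36 were higher and 19 lower, beside 29% and 21.5% of all genes, and in oligodendrocyte-like cells 3 and 18, beside 30.3% and 25.5%. In OPC-like cells 8 were higher, near the background of 25.9%, and 19 were lower, beside 20.3%. In neuroblast-like cells 6 were higher and 20 lower, beside 32.3% and 24.9%, and in neuron-like cells 4 and 10, beside 30.4% and 22.1%. *Ptprz1*, which encodes a further receptor for IL-34, came first in OPC-like cells at 4258 and 4851 CPM (5.15 ± 0.16, edgeR adjusted p = 2.28e-13) and in astrocyte-like cells at 1459 and 1599 (3.86 ± 0.17, edgeR adjusted p = 5.03e-12). *Smad7*, an inhibitor of TGF-beta signalling, came first in oligodendrocyte-like cells at 352 and 442 (3.12 ± 0.17, edgeR adjusted p = 5.34e-11), and *Sdc1*, a syndecan that binds IL-34, in neuroblast-like cells at 12.4 and 13.2 (3.19 ± 0.30, edgeR adjusted p = 3.07e-07). The gene with the largest increase in neuron-like cells was *Tgfbr3*, a co-receptor, at 17.5 and 15.2 (1.96 ± 0.28, edgeR adjusted p = 1.20e-05). Its level was higher in vascular cells, at 61.3 and 112 in endothelial-like (4.70 ± 0.16, edgeR adjusted p = 9.62e-14) and 51.5 and 74.6 in mural-like cells (4.21 ± 0.21, edgeR adjusted p = 2.48e-11).

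The genes nearest to each of the 10 in pattern were found by Pearson's r of log2(CPM + 10) over the 18 library and class sums, among 15465 genes. The sums share libraries and the values describe these cells, with no test. *Csf1r* ran closest to *C1qb* (r = 0.997), *Laptm5* (0.997) and *Ctss* (0.997), and *Cx3cr1* to *Trem2* (0.991), *Ctss* (0.990) and *Gpr34* (0.989), all transcripts of microglia. *Ctss* and *Gpr34* belong to the marker list that named the microglia-like class, and class markers were not left out of this search. *Tgfbr1* ran closest to *Bin2* (0.977), *Naip5* (0.976) and *AU022793* (0.974), *Tgfbr2* to *Ctsh* (0.992), *9930111J21Rik2* (0.979) and *Grap* (0.977), *Tgfb1* to *9930111J21Rik2* (0.983), *Psme2b* (0.981) and *Xlr* (0.979), and *Nrros* to *Dnase2a* (0.9501), *Mob3c* (0.941) and *Ctsc* (0.941).
Among the ligands with sources outside the myeloid classes, *Csf1* ran closest to *Ttyh2* (0.947), *Ankrd40* (0.919) and *Wipi1* (0.896), *Il34* to the laminin gene *Lamb1* (0.970), *Ccn3* (0.962) and *Rgs4* (0.962), *Cx3cl1* to *Syt7* (0.971), *Baiap2* (0.945) and *Gm14636* (0.939), and *Tgfb2* to *Timp3* (0.945), *Ginm1* (0.942) and *Ece1* (0.941).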

How the data were processed

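Single-cell RNA was measured in 2 libraries of mouse striatum. The authors deposited raw UMI counts for each gene in each cell, made on mm10 with Cell Ranger 4.0 per the labels; the study's methods name another version. How strand and overlapping genes were counted is not given in the sources used here.

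Barcodes with at least 300 detected genes and genes in more than 3 cells were kept, and doublets marked by Scrublet (scanpy 1.11.5, expected rate 6%) were removed, 96 and 159 cells. Seurat 5.3.0 (R 4.3.3) integrated the libraries on 2000 variable genes and clustered cells on 30 principal components at resolution 0.08. The clustering ran without the members, the 38 pathway genes and 97 cell-cycle genes. A cluster took a class name when at least 3 class markers were raised at least 2-fold with 10 CPM added and 1 or more was among its 50 leading genes, unless its 10 leading genes held more markers of another class. Levels are CPM, counts scaled by the total, with 95% exact Poisson intervals. Sums per library and class were fitted in edgeR 4.0.16 (TMM, quasi-likelihood, prior count 2, 8 residual degrees of freedom), with the library as a block since classes of 1 library share a suspension. Simulated counts were used to test the fit. Each SE was derived from the log2 fold change and the F statistic of the test, and is not an edgeR output. P-values were adjusted over all 15475 genes tested in each contrast. A count of 3 UMIs was the floor, and DESeq2 1.42.0 was an alternative. Named genes were the members, per class the pathway gene with the largest called increase, and 3 nearest genes per member; others were chosen after their values were seen. The members and lists were chosen with earlier results of these data known. Positions were read by identifier from a GENCODE annotation of GRCm38, and upstream sequences from RefSeq for 8 of the 10 members. All alternatives are given in the closing section.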

Additional observations from a re-analysis of the deposited data

How the results depend on the processing

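Of the 32 calls of a gene in a class, 27 were kept in sign and call under each of 9 alternatives: DESeq2, library sizes alone, no replicate block, no filter on genes, resolution 0.32, doublets kept, at least 500 detected genes, under 20% mitochondrial UMIs and cells thinned to 1000 UMIs. The number of calls lay between 29 and 33, the pathway calls between 81 and 105 beside 100, and the class pairs called between 211 and 280 beside 255. Without the replicate block the 3 numbers were 30, 97 and 238. The block has its basis in the design, as all classes of 1 library come from 1 suspension.

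The 5 calls that were lost or turned under some alternative were *Cx3cl1* in OPC-like and astrocyte-like cells, *Tgfb2* in OPC-like cells, *Il34* in endothelial-like cells and *Nrros* in endothelial-like cells. *Il34* in endothelial-like cells turned to −1.23 at resolution 0.32, −1.22 with doublets kept, −1.44 with at least 500 detected genes and −0.70 under 20% mitochondrial UMIs, on the log2 scale. *Cx3cl1* in astrocyte-like cells turned to −0.41, −0.68 and −0.72 at resolution 0.32, with at least 500 detected genes and under 20% mitochondrial UMIs. *Tgfb2* in OPC-like cells turned to −0.0189 under 20% mitochondrial UMIs. At resolution 0.32 the cells concerned changed class or left the fit, and fibroblast-like and progenitor-like classes joined the mean of the others. For the other alternatives the cause was not tested. Leaving out 1 library leaves no residual degrees of freedom, so those values have no test; 63 of 64 kept their sign, and *Nrros* in astrocyte-like cells ranged from −0.0618 to 2.08, being −0.0618 without replicate 1. With library sizes alone the median of all genes moved by −0.31 (oligodendrocyte-like) to 0.42 (OPC-like) on the log2 scale. With 2 libraries, no more than 1 estimate of the spread per class is at hand, and values under 3 UMIs set no level.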

Other observations

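The shares of cells with a UMI moved with depth. Cells shallower than the target were left out of the thinned shares, so the sets of cells differ as well. *Csf1* was seen in 42.5% of oligodendrocyte-like cells at full depth, in 7.03% at 1000 UMIs per cell and in 11.8% at 2000, and *Il34* in 47.9%, 24.1% and 37.2% of mural-like cells. *Csf1r* stayed at 97.7%, 96.5% and 99.7% of microglia-like cells. The 88 oligodendrocyte-lineage cells at the low end of *Csf1* were the deepest finer group, with a median of 33405 UMIs. Ependymal-like cells, 109 cells within the neuroblast-like class, held *Tgfb2* at 36.3 and 57.4 CPM, beside 8.11 and 12.2 in the class as a whole.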
